A study of Mus musculus with 4 samples.

Results

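The genes described here encode the proteins of the cytosolic ribosome. They were chosen by symbol, as the rows named Rps or Rpl with a number and at most 1 letter a, x, y or l, together with Rplp0 to Rplp2 and Rpsa, which gives 80 of the 32285 genes in the count tables. Of these, 31 belong to the small and 49 to the large subunit. They were followed in CD45+ leukocytes sorted from mouse left lungs transplanted between B6 mice, after storage for 60 min at 4 °C and 45 min at 28 °C, with collection 2 h after engraftment. Resolvin D1 (RvD1), a lipid mediator derived from docosahexaenoic acid, was injected into a vein of the recipients right before the transplantation, as 200 ng in a volume of 200 µL with 1% ethanol, and vehicle was injected into the control recipients, per the labels' protocols. Cells of the donor and of the recipient were sequenced apart, so there are 4 groups. Values given in sets of 4 below come from donor cells after vehicle, donor cells after RvD1, recipient cells after vehicle and recipient cells after RvD1, in this order. Each group is 1 library made from 2 pooled lungs, all groups share the strain, the storage and the transplantation, and no graft without storage or untransplanted lung was analysed here. The labels do not tie the donor library of a treatment and its recipient library to the same lungs.

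A ribosome holds 1 copy of nearly every ribosomal protein, and the genes are expressed at high and coordinated levels. Most of their mRNAs begin with a C followed by a run of pyrimidines, the 5' terminal oligopyrimidine (TOP) motif, through which mTORC1 and the RNA-binding protein Larp1 set how strongly they are translated and how long they are kept. Naive lymphocytes are known for a large share of ribosomal protein mRNA, and mature neutrophils for a small one. A UMI (unique molecular identifier) stands for 1 captured mRNA molecule, so the counts below describe mRNA and not protein or ribosomes.

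The 5 promoter windows below show the stretch around the start, where the motif lies in TOP genes, and were chosen for genes on which the later comparisons turn. Each is 30 bases around the start site of transcription, 5' to 3' on the strand of the gene, with the longest run of C and T in capitals, from RefSeq on GRCm38.p6. Rps9 (chr7:3704026-3704055, plus strand) and Rps27 (chr3:90213634-90213663, minus strand) made up a larger part of the ribosomal protein UMIs in neutrophils than in other leukocytes, and Rps18 (chr17:33955651-33955680, minus strand) and Rpsa (chr9:120127751-120127780, plus strand) a smaller part. Rpl35 (chr2:39005117-39005146, minus strand) stood lowest among the members in the comparison of RvD1 with vehicle.
Rps9: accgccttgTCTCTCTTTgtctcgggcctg
Rps27: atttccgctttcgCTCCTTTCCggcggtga
Rps18: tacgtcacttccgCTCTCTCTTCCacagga
Rpsa: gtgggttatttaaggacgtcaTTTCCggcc
Rpl35: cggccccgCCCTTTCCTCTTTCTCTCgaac
The longest pyrimidine run of the Rpsa window had 5 bases. The pentamer CTTTC lay on the strand of the gene between 25 bases before and 50 bases after the start in 45.8% of 72 member promoters (60 genes) and in 9.55% of 32779 other promoters. On the opposite strand it lay in 9.72% and 9.39%. A run of at least 8 pyrimidines lay in 69.4% of the member windows of 75 bases and in 27.1% of the others. These matches describe the letters and are no measure of translation.

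The libraries held 44338340 to 61294707 UMIs over 5195 to 7836 barcodes, and 5024 to 7345 cells per library were used, with a median of 5386 to 7905 UMIs per cell. Pairs of libraries shared 4 to 15 barcodes, at most 0.269% of the smaller library. Cells were assigned to classes from marker genes, with the ribosomal protein genes left out of the clustering, and a class name below means cells that look like that class by its markers. Unnamed clusters held 60 to 210 cells per library. Cell Ranger 7.0.1 made the counts of the RvD1 libraries and version 6.1.1 those of the vehicle libraries, per the file headers, so the treatment and the version cannot be told apart. As each group is 1 library, differences have no replicate check and no test was run. All intervals are 95% and cover counting error only, and a ratio compares the libraries named.

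The members gave 14.9% of all UMIs in the 4 libraries. Rps29, a small zinc-binding protein of the small subunit, had most (924913 UMIs, 3.3% of the ribosomal protein UMIs), followed by Rps27, Rps24, Rpl37a and the stalk protein gene Rplp1. At the other end, Rpl10l, a paralogue of Rpl10 known from testis, had 0 UMIs and Rpl39l, a paralogue of Rpl39 also known from testis, had 89. Rps4l had no row. The remaining 78 members had at least 100 UMIs, the 2 lowest being Rpl3l with 2036 and Rps27l with 29271.

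Ribosomal protein genes took up about 1 UMI in 50 in neutrophils and up to 1 in 3 in T cells, and this order of cell classes was the same with few exceptions in every library. In neutrophils their share of all UMIs was 2.04%, 2.13%, 2.11% and 2.33%. Nonclassical monocytes, which patrol vessel walls, had 9.32%, 13.7%, 9.75% and 13%. In NK cells the share was 13.6%, 17.8%, 16.7% and 18.6%, and in classical monocytes 15.2%, 17.5%, 16.8% and 18.1%. B cells had 19.7%, 26.1%, 23.7% and 25.4%, and T cells had 22.2%, 27.2%, 33.3% and 34.7%. Neutrophils were lowest, nonclassical monocytes next, and B and then T cells highest in all 4 libraries. Classical monocytes stood above NK cells in both vehicle libraries and below them in both RvD1 libraries. The T cell share was 10.9, 12.8, 15.8 and 14.9 times the neutrophil share. Intervals of these shares were narrow, for example 2.03% to 2.05% for vehicle donor neutrophils, because each rests on at least 159385 ribosomal protein UMIs. Cells within a class spread more widely. The 10th and 90th percentiles of single neutrophils were 1.15% and 3.15% in the vehicle donor library, and those of single T cells were 11.7% and 32.2%. Classes with cells in fewer libraries fell between these ends. Dendritic cells had 17.5% and 18.3% in the vehicle and RvD1 donor libraries, group 2 innate lymphoid cells 19.2% and 24.7% in the same, and alveolar macrophages 7.74% in the vehicle donor library.

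**Figure D1:**
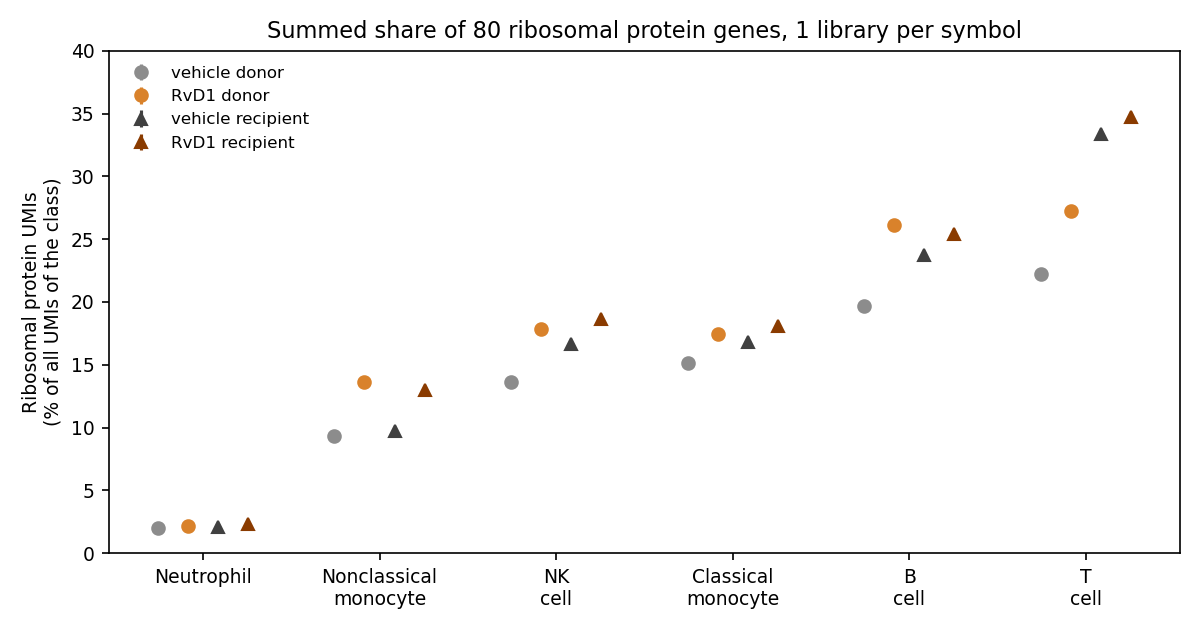
Share of all UMIs that came from the 80 ribosomal protein genes (y axis, %) in 6 leukocyte classes (x axis), with 1 symbol per library: circles for donor cells, triangles for recipient cells, grey for vehicle and orange to brown for RvD1. Bars are exact 95% counting intervals, smaller than the symbols. Neutrophils lie at 2.04% to 2.33% and T cells at 22.2% to 34.7%.

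Counted per cell, a neutrophil held 114, 110, 122 and 116 ribosomal protein UMIs on average. A T cell held 2173, 2308, 3100 and 2657, and a classical monocyte 2321, 2787, 2467 and 2152. All other genes together gave 5474, 5058, 5634 and 4888 UMIs per neutrophil and 7620, 6166, 6196 and 4997 per T cell, so the classes lay closer together there.

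Neutrophils also had the mixture of ribosomal proteins that differed most from the other classes. Over 77 members, the log2 share of the ribosomal protein UMIs correlated between neutrophils and T cells with r from 0.57 to 0.64 within a library, and between neutrophils and nonclassical monocytes with r from 0.81 to 0.82. T and B cells correlated with r from 0.97 to 0.98, classical and nonclassical monocytes with r from 0.97 to 0.98, and a class with itself in another library with r from 0.98 to 1.00. These are descriptions over members, which share a library and its depth.

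Members whose part of the ribosomal protein UMIs lay at least 2-fold from the median of the 5 other classes in every library numbered 22 in neutrophils, 7 higher and 15 lower. By the same rule, applied to shares of the UMIs outside the members, 60.4% of the other genes were called in neutrophils, so the members' count is not above the background. The higher members were Rps9, Rps27, Rps27a, Rpl37, Rpl41, Rps25 and Rpl3l. The lower members included Rpl10a, Rps18, Rpsa, Rps19, Rpl12, Rpl32, Rpl3, Rps4x, Rps20, Rps15a, Rpl35, Rpl4, Rpl36a and Rps24. Both sets mix the subunits, with 4 small and 3 large subunit members among the higher and 8 and 7 among the lower. Within single neutrophil clusters the same departures were seen for most of them. These clusters are parts of the cells from which the members were chosen, so this describes the spread over clusters and is no separate check. In the 18 combinations of cluster and library with at least 100 cells, Rps9, Rps27, Rps27a and Rpl3l were at least 2-fold higher in all 18, and Rpl10a, Rps18, Rpsa, Rps19, Rpl12, Rpl32, Rpl3, Rps4x and Rpl35 at least 2-fold lower in all 18. Rps25 passed in 12 of 18, the fewest.

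Rps9 (chr7:3703993-3706897, plus strand), a small subunit protein that binds the ribosomal RNA early in assembly, had 1211, 1393, 1363 and 1554 CPM (counts per 1000000 UMIs of the class) in neutrophils against 1601 to 4099 in the 5 other classes. Its part of the ribosomal protein UMIs was 5.94% to 6.68% in neutrophils and 1.15% to 2.27% elsewhere, with no overlap. Rps27 (chr3:90212522-90213651, minus strand), a zinc-finger protein of the small subunit, had 1573, 1390, 1544 and 1592 CPM in neutrophils and 3226 to 9973 elsewhere, which was 6.52% to 7.71% against 1.85% to 3.92% of the ribosomal protein UMIs. Rps27a, made as a fusion of ubiquitin with a small subunit protein, had 732, 770, 940 and 1027 CPM in neutrophils. Rpl41, the smallest ribosomal protein, had 749, 851, 765 and 822 CPM. In CPM all of these were still lower in neutrophils than in every other class, so "higher" refers to the mixture and not to the level.

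The lower members had low levels in neutrophils. Rpl10a (chr17:28328471-28331033, plus strand), the large subunit protein of the L1 stalk, had 24.2, 20.03, 17.1 and 29.2 CPM in neutrophils and 431 to 2528 CPM in the other classes. Its level was 36.8 to 64.9 times below the median of the other classes, the widest gap of all members measured. Rps18 (chr17:33951999-33956001, minus strand), in the head of the small subunit, had 53.6, 59.9, 52.9 and 78.8 CPM against 931 to 5619. Rpsa (chr9:120127689-120132369, plus strand), the small subunit protein that was first described as a laminin receptor, had 63.8, 76.7, 57.8 and 80.4 CPM against 1290 to 5561. Rpl12 (chr2:32961559-32965345, plus strand), at the base of the stalk, had 64.2, 49.4, 47.8 and 57.6 CPM, and Rpl3, which lines the peptidyl transferase centre, 40.7, 34.5, 34.4 and 41.2 CPM. No neutrophil value of these genes came near that of another class. In contrast, the gap of Rps9 was 2.18- to 2.42-fold and that of Rps27 was 2.63- to 3.22-fold. In all, 77 members were below the median of the other classes in CPM in all 4 libraries.

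**Figure D2:**
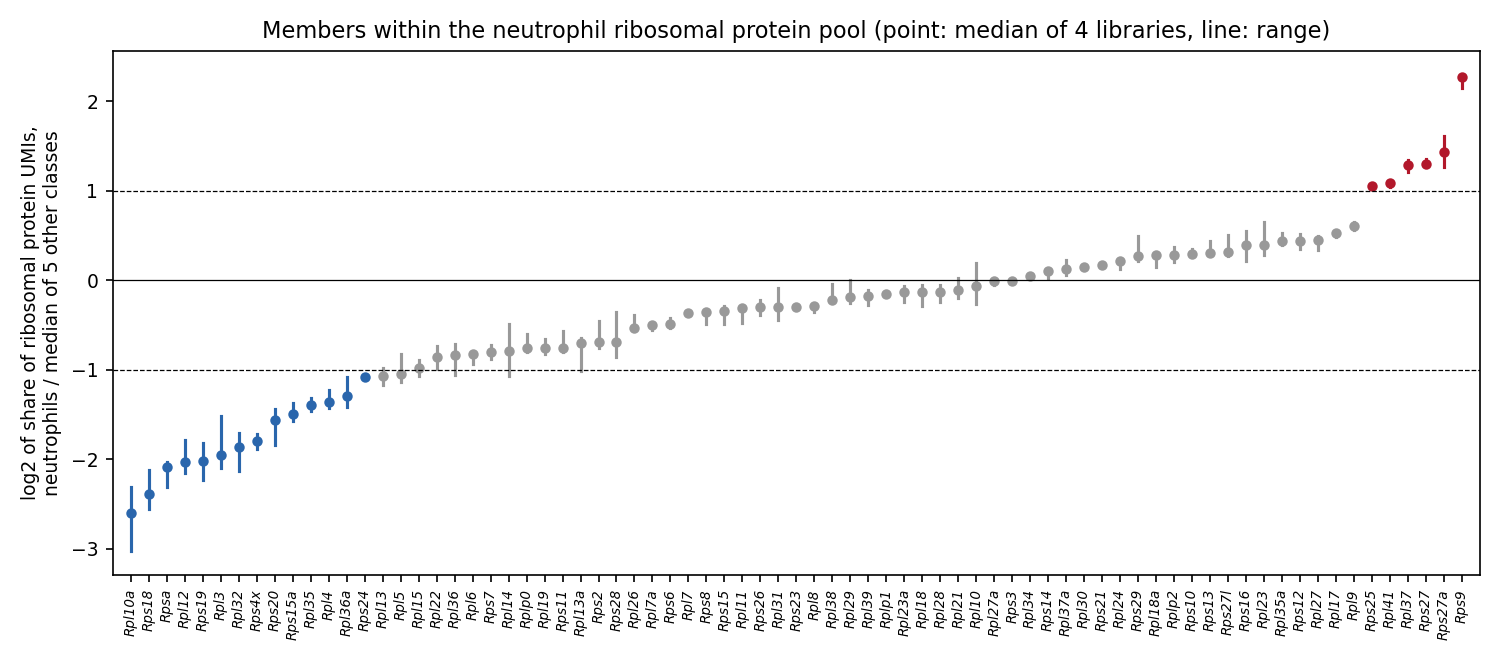
For each of 75 members (x axis), the log2 ratio of its share of the ribosomal protein UMIs in neutrophils to the median share in the 5 other classes (y axis). Points are the median of 4 libraries and lines span the lowest to the highest library. Red and blue mark members at least 2-fold (dashed lines) higher or lower in every library. Rps9 stands at the upper end and Rpl10a at the lower end, and Rpl3l is not drawn because B or NK cells had no UMI of it in some libraries.

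Free RNA in droplets gives each class some UMIs of genes it does not express. T cell markers summed to 0.479% to 0.877% of their T cell level in neutrophils, and B cell markers to 0.254% to 0.405% of their B cell level. NK cell markers summed to 0.0396% to 0.137% of their NK cell level, and classical monocyte markers to 1.93% to 2.91% of their level in classical monocytes. Rpl10a stood at 0.764% to 1.79% of its T cell level, Rps18 at 0.966% to 1.64%, Rpl12 at 0.801% to 1.67%, Rpsa at 1.12% to 1.88% and Rpl3 at 1.36% to 2.78%. In each library these percentages lay above those of the T, B and NK cell markers. Each marker percentage refers to the level in its own class, so the classical monocyte markers need members on the same base. In the vehicle donor library these markers stood at 2.91% of the classical monocyte level. On that base Rpl10a (2.72%) and Rps18 (2.87%) lay just below them, and Rpsa (3.04%), Rpl3 (4.7%) and Rpl12 (6.97%) above. In the RvD1 donor library the markers stood at 1.93%. There Rpl10a (1.63%) lay below them, and Rps18 (2.62%), Rpl3 (2.85%), Rpsa (3%) and Rpl12 (4.55%) above. The recipient libraries are not given on this base. Free RNA of a member can come from all classes at once, while each marker is tied to its own class. A value above the markers of a single class therefore cannot tell how much came from neutrophils. How much of the UMIs of these genes came from neutrophils themselves was not tested. The median member stood at 5.37% to 7.80% and Rps9 at 33.4% to 44.0% of the T cell level, above all of these markers.

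Features that the rule had not used were read for both neutrophil sets. The median coding length was 375 bases for the 7 higher, 456 for the 15 lower and 460 for the 56 other members. A pyrimidine run of at least 8 bases stood in the 30-base window of 2 of 6 higher, 5 of 11 lower and 19 of 41 other genes with a promoter entry. Gene ends that hold stretches found in another gene, which could move reads between copies, occurred in 5 of 7, 11 of 15 and 48 of 56.

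Outside neutrophils few members changed their part of the mixture between classes. The count was 1 of 80 members in classical and 1 in nonclassical monocytes, 3 in T cells, 1 in B cells, 1 in NK cells and 1 in dendritic cells, against 18.7%, 15.8%, 23.1%, 20.4%, 19.8% and 17.6% of the other genes. All of these were Rpl3l, Rps27l or Rpl12. Rpl12 was higher in T cells, where it had 3837, 4018, 5966 and 5852 CPM against 921 to 1086 CPM in classical monocytes, and made up 2.37- to 2.95-fold more of the ribosomal protein UMIs there than in the median of the other classes.

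Rps27l, a paralogue of Rps27 known as a p53 target, stood apart from its parent gene. The coding sequences, from the GENCODE M21 transcripts, are shown because both genes have the same coding length of 255 bases, stop included, and differ at 61 positions (76.1% identity). Capitals mark the positions where Rps27l differs.
Rps27: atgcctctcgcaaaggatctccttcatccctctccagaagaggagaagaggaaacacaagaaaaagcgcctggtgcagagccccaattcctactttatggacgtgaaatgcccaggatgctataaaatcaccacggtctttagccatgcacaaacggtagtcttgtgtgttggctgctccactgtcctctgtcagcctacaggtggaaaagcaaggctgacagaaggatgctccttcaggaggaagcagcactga
Rps27l: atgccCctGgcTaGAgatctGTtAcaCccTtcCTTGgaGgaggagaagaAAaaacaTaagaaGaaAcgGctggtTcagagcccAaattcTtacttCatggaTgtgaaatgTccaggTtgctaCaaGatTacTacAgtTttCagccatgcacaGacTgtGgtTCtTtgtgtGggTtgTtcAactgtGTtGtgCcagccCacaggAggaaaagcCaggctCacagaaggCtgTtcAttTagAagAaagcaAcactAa
Rps27l (chr9:66946086-66949516, plus strand) had 647 and 693 CPM in dendritic cells of the vehicle and RvD1 donor libraries, its highest level. Classical monocytes had 270, 291, 250 and 255 CPM, NK cells 177, 170, 172 and 181, B cells 146, 170, 153 and 139, and nonclassical monocytes 130, 187, 116 and 165. T cells had 131, 148, 110 and 102 CPM and neutrophils 32.9, 28.8, 26.4 and 28.3. So dendritic cells, where present, and then classical monocytes were highest and neutrophils lowest in each library, while the classes between them changed places. As a part of the ribosomal protein UMIs it was 2.75- to 3.33-fold above the median of the other classes in dendritic cells and 0.241 to 0.422 times that median in T cells. The parent Rps27 was higher in T cells (6934 to 9973 CPM) than in dendritic cells (3704 to 4241 CPM).

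Rpl3l, a paralogue of Rpl3 known from heart and skeletal muscle, had UMIs almost only in myeloid cells. It had 29.3, 48.7, 56.0 and 46.1 CPM in nonclassical monocytes, from 154 to 273 UMIs per library. Neutrophils had 21.1, 21.6, 15.6 and 15.9 CPM, and classical monocytes 12.8, 5.45, 7.10 and 8.85 CPM. T cells had 1, 1, 2 and 2 UMIs, B cells 1, 3, 0 and 0, and NK cells 0, 3, 5 and 1. Its higher part of the mixture in myeloid classes and lower part in lymphocytes therefore rest on these low counts, and no ratio is given. Rpl3l lies at chr17:24727820-24736143 on the plus strand. The next gene on that strand, Msrb1, which encodes a methionine sulfoxide reductase, starts 498 bases after its end. Msrb1 had 1234, 1383, 1622 and 1380 CPM in neutrophils and 719, 783, 868 and 906 in nonclassical monocytes, and its highest value among T, B and NK cells was 58 CPM. Classical monocytes had 647, 700, 962 and 916 CPM of Msrb1, close to nonclassical monocytes, while their Rpl3l level was lower. Both genes were thus higher in these myeloid classes than in lymphocytes. Among the myeloid classes neutrophils were highest for Msrb1 and nonclassical monocytes for Rpl3l. Whether reads of Msrb1 entered the Rpl3l count was not tested.

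With RvD1 the ribosomal protein share was higher than with vehicle in all 6 classes compared, in donor as in recipient cells, and over whole classes the difference was widest in nonclassical monocytes. The log2 ratio of the shares there was 0.55 in donor cells (95% interval 0.55 to 0.56). In recipient cells it was 0.41 (0.41 to 0.42). NK cells had 0.39 and 0.16, B cells 0.41 and 0.10, T cells 0.30 and 0.058, classical monocytes 0.21 and 0.11, and neutrophils 0.063 and 0.14, in donor and recipient cells. The difference was larger in donor than in recipient cells in 5 of the classes and smaller in neutrophils, and whether it differs between origins was not tested. Dendritic cells, found in the donor libraries, had 0.071. All of these values also carry the change of software version.

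Most members took part in the higher share. In donor nonclassical monocytes 78 of 78 measured members were higher with RvD1, with a median log2 ratio of 0.60 against -0.059 for other genes, and 42 of 78 were at least 1.5-fold higher, against 7.3% of other genes. In recipient nonclassical monocytes 76 of 78 were higher, with a median of 0.43 against 0.071, and 0 were at least 1.5-fold higher, against 8.47% of other genes. In donor B cells 77 of 77 were higher, 9 of them at least 1.5-fold, against 3.62% of other genes. In donor T cells 71 of 77 and in donor NK cells 75 of 77 were higher. Medians of members and other genes were 0.46 and -0.28 in donor B cells, 0.34 and -0.12 in donor T cells and 0.41 and -0.10 in donor NK cells. Donor neutrophils were the most mixed of the donor classes, with 50 of 78 members higher. There the median of the members, 0.048, was close to that of other genes, 0.036. In recipient cells the counts were 57 of 77 in T cells, 64 of 77 in B cells, 68 of 77 in classical monocytes, 71 of 77 in NK cells and 70 of 78 in neutrophils. Recipient neutrophils also had a raised median of other genes, 0.12, against 0.17 for members, so higher values there were not particular to members. Elsewhere in this list other genes had medians below 0: -0.067 (T), -0.090 (B), -0.060 (classical monocytes), -0.060 (NK). Members had 0.065, 0.12, 0.11, 0.18 in the same order. Small and large subunit members had close medians, 0.52 and 0.61 in donor nonclassical monocytes and 0.31 and 0.36 in donor T cells.

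Rpl39, which lies at the exit tunnel of the large subunit, was the member nearest the median in nonclassical monocytes and shows the size of the difference. It had 1471 CPM with vehicle and 2247 CPM with RvD1 in donor cells, and 1568 and 2083 CPM in recipient cells, so both RvD1 libraries were higher. These levels are of the whole class, and its recipient difference in ribosomal protein share did not hold within either of its clusters, as given below. In T cells the nearest member was Rpl27, with 1843 and 2329 CPM in donor and 2468 and 2564 CPM in recipient cells. In B cells it was Rpl19, with 2794 and 3835 CPM in donor and 3422 and 3709 CPM in recipient cells. Rpl22, nearest in NK cells, had 909 and 1216 CPM in donor and 1151 and 1312 CPM in recipient cells. Rps9 was nearest in classical monocytes and Rpl7 in neutrophils, where Rpl7 had 135 and 140 CPM in donor and 137 and 156 CPM in recipient cells.

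Counts per cell did not all move the same way as shares. Ribosomal protein UMIs per cell were higher with RvD1 in donor cells of 5 classes, for example 1461 with vehicle and 1746 with RvD1 in nonclassical monocytes, and lower in neutrophils (114 and 110). In recipient cells they were lower with RvD1 in all 6 classes, for example 1341 and 1236 in nonclassical monocytes and 3100 and 2657 in T cells. UMIs of all other genes per cell were lower with RvD1 in every class and origin except donor classical monocytes (12998 and 13160). In recipient nonclassical monocytes they were 12414 with vehicle and 8286 with RvD1. The higher shares in recipient cells thus stood beside fewer UMIs of both kinds, and the part of library depth in them was not tested.

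The make-up of the classes also differed between libraries. Nonclassical monocytes fell into cluster 9 and cluster 16, the latter with lower ribosomal shares. In cluster 9 the share was 11.7%, 15.8%, 14.2% and 14.1%, a log2 ratio of RvD1 to vehicle of 0.43 in donor and -0.016 in recipient cells. In cluster 16 it was 7.0%, 8.84%, 7.40% and 7.90%, or 0.34 and 0.093. In recipient cells the 0.41 of the whole class therefore did not hold within either cluster. Single clusters of other classes differed as much or more in donor cells, with 0.66 in T cell cluster 12, 0.49 in B cell cluster 2 and 0.47 in T cell cluster 18. Cluster 16 held 222, 73, 96 and 51 cells and cluster 9 held 372, 240, 104 and 332. All 9 neutrophil markers were detected in nonclassical monocytes of each library, and their sum was 9227, 10318, 30385 and 6366 CPM, highest in vehicle recipient cells. Neutrophil cluster 0 held 866, 207, 1303 and 60 cells, and without it the donor neutrophil ratio turned to -0.042. Of the 6 neutrophil clusters with at least 50 cells in both libraries compared, the ratio of RvD1 to vehicle was above 0 in clusters 0, 1 and 11 and below 0 in clusters 4, 7 and 10 in donor cells, from -0.14 to 0.21.

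No member departed from the others with RvD1 by the rule used here. A member was counted as departing when its log2 ratio lay at least 1.5-fold from the median member in the same direction in donor and recipient cells. The count was 0 of 77 or 78 members in each of the 6 classes. By the same rule around their own median, 15.1% of other genes departed in neutrophils, 3.32% in classical monocytes, 7.82% in nonclassical monocytes, 3.03% in T cells, 2.07% in B cells and 2.26% in NK cells. Among other genes with at least 1000 UMIs, whose depth is closer to that of the members, the figures were 12.5%, 2.76%, 10.5%, 1.75%, 3% and 1.65%. Averaged over the 12 contrasts (6 classes, 2 origins), 58 of 77 members lay within 0.1 of the median member on the log2 scale. Among members measured in both origins, 1.5-fold was passed in a single contrast by Rpl35 in recipient classical monocytes (-0.64) and recipient NK cells (-0.65). It was also passed by Rpl10a in recipient neutrophils (0.60), where its level was under 30 CPM, and by Rpl3l in recipient nonclassical monocytes (-0.71). Rpl3l in classical monocytes had enough UMIs in donor cells only, where its log2 ratio was -1.24 (12.8 and 5.45 CPM) and that of the median member 0.21.

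**Figure D3:**
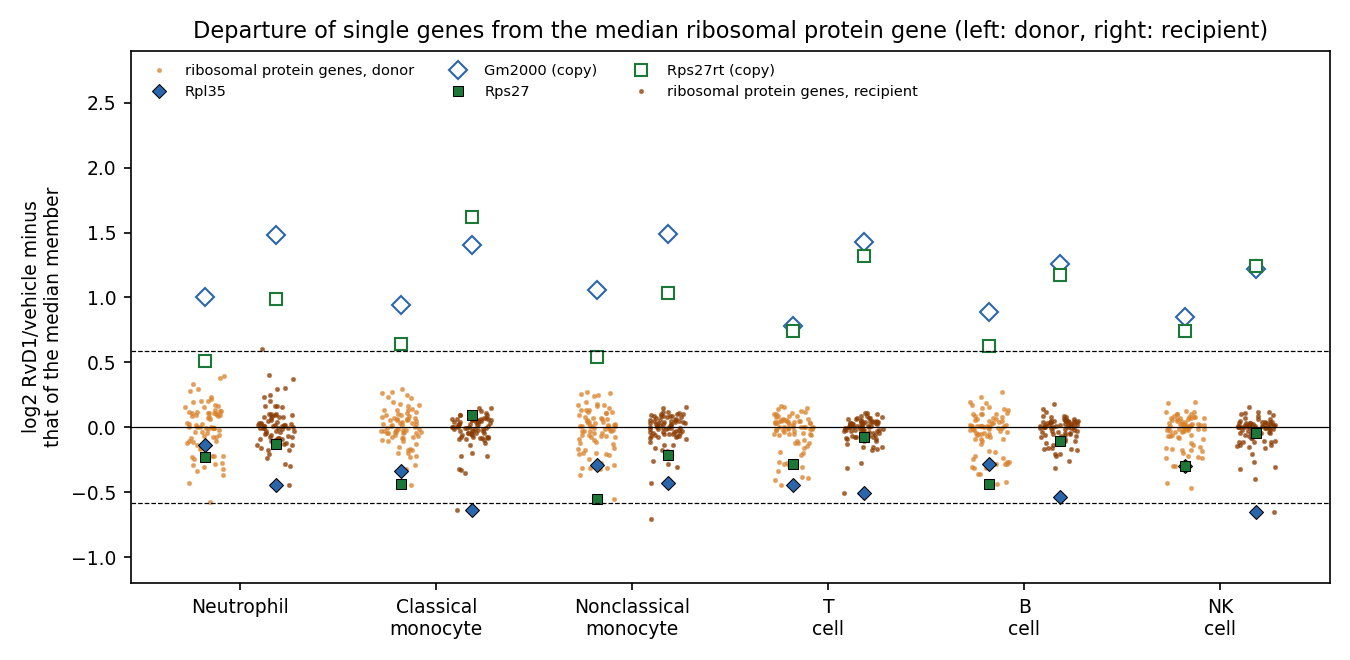
Departure of each gene from the median ribosomal protein gene (y axis, log2 ratio of RvD1 to vehicle minus that of the median member) in 6 classes (x axis), donor cells left and recipient cells right in each pair. Small dots are members, filled symbols Rpl35 (diamonds) and Rps27 (squares), and open symbols their copies Gm2000 and Rps27rt. Dashed lines mark 1.5-fold, and Rpl35 lies below 0 in all 12 contrasts while Gm2000 lies above.

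Below that size, 9 members were under the median member in all 12 contrasts and 2 above it in all 12. The 12 contrasts come from the same 4 libraries, and other genes were not counted in this way. Whether 9 and 2 are many is therefore not known. The lowest was Rpl35, a large subunit protein near the exit of the peptide tunnel, with a mean departure of -0.42 (range -0.65 to -0.14). Others among the 9 were Rpl23a, which forms part of the docking site for the signal recognition particle (-0.32), Rps15 (-0.21), Rpl31 (-0.20), the stalk protein gene Rplp2 (-0.19), Rpl5, which carries 5S RNA into the ribosome (-0.18), Rps25 (-0.17) and Rpl4 (-0.14). Rpl11, the partner of Rpl5 on 5S RNA, was above in all 12 with a mean of 0.093, and Rpl13 with 0.076. Rps27 was below in 11 of 12, with a mean of -0.23. These were picked from their values and are given as a description.

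Rpl35 (chr2:39001580-39005624, minus strand) was lower with RvD1 in level too in several classes. In T cells it had 1620, 1506, 2878 and 2119 CPM, and in classical monocytes 1254, 1152, 1579 and 1092 CPM, so both RvD1 libraries were below their vehicle library. In nonclassical monocytes it had 703, 871, 802 and 798 CPM, where the median member was higher with RvD1 in both origins. A second gene, Gm2000 (chr1:156366040-156366484), is annotated as protein coding and carries almost the same sequence. The coding sequences, from the GENCODE M21 transcripts, have 372 bases with the stop and differ at 1 position (99.7% identity). Bases 61 to 180, counted from the start codon, hold that position, which is in capitals in Gm2000.
Rpl35: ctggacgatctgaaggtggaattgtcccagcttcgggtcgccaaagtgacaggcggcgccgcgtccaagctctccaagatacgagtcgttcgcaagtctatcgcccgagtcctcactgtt
Gm2000: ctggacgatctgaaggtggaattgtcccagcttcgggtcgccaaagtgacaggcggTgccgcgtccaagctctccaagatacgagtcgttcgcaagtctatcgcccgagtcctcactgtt
Gm2000 was higher with RvD1. Over all cells it had 170, 378, 139 and 508 CPM, and in T cells 288, 625, 355 and 998 CPM, so both RvD1 libraries were above both vehicle libraries. Of the UMIs of Rpl35 and Gm2000 together, Gm2000 had 13.2% to 16.8% over the 6 classes in vehicle donor, 27.9% to 30.9% in RvD1 donor, 9.75% to 12.7% in vehicle recipient and 30.8% to 33.8% in RvD1 recipient cells. The share was nearly alike in all classes of a library and did not overlap between RvD1 and vehicle libraries. With both genes summed, the departure from the median member ranged from -0.26 to 0.13 over the 12 contrasts, against -0.65 to -0.14 for Rpl35 alone. The sources used here do not say how reads that match both genes were assigned, and the libraries of each treatment were counted with their own software version.

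Rps27 had such a copy as well. Rps27rt (chr9:114982366-114982739) has the coding sequence of Rps27 printed above, with 0 differences in 255 bases. It had 133, 264, 151 and 452 CPM over all cells, and 2.96% to 4.27%, 6.1% to 6.91%, 2.77% to 3.67% and 7.38% to 7.73% of the UMIs of both genes over the 6 classes. Here too the RvD1 libraries did not overlap the vehicle libraries. Gm10076, a copy of Rpl41, had 4.88% to 5.39%, 4.42% to 5.10%, 4.80% to 5.73% and 9.59% to 10.3% of the summed UMIs, so it was raised in RvD1 recipient cells alone. Rpl9-ps6, a copy of Rpl9, had 1.81% to 2.19%, 2.57% to 3.21%, 1.76% to 2.18% and 3.24% to 3.60%. In all, 9 genes outside the rule shared at least 50% of the 31-base words of the last 300 bases of a member, and 8 of them had at least 100 UMIs. Copies at least 1.5-fold higher with RvD1 in both origins numbered 2 of 5 in neutrophils, 4 of 5 in classical monocytes, 4 of 5 in nonclassical monocytes, 4 of 7 in T cells, 5 of 6 in B cells and 4 of 5 in NK cells. The share of other genes passing this was 5.31%, 1.06%, 2.39%, 1.18%, 0.74% and 0.955% in the same order. The copies were looked for after the departures of Rpl35 had been seen.

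**Figure D4:**
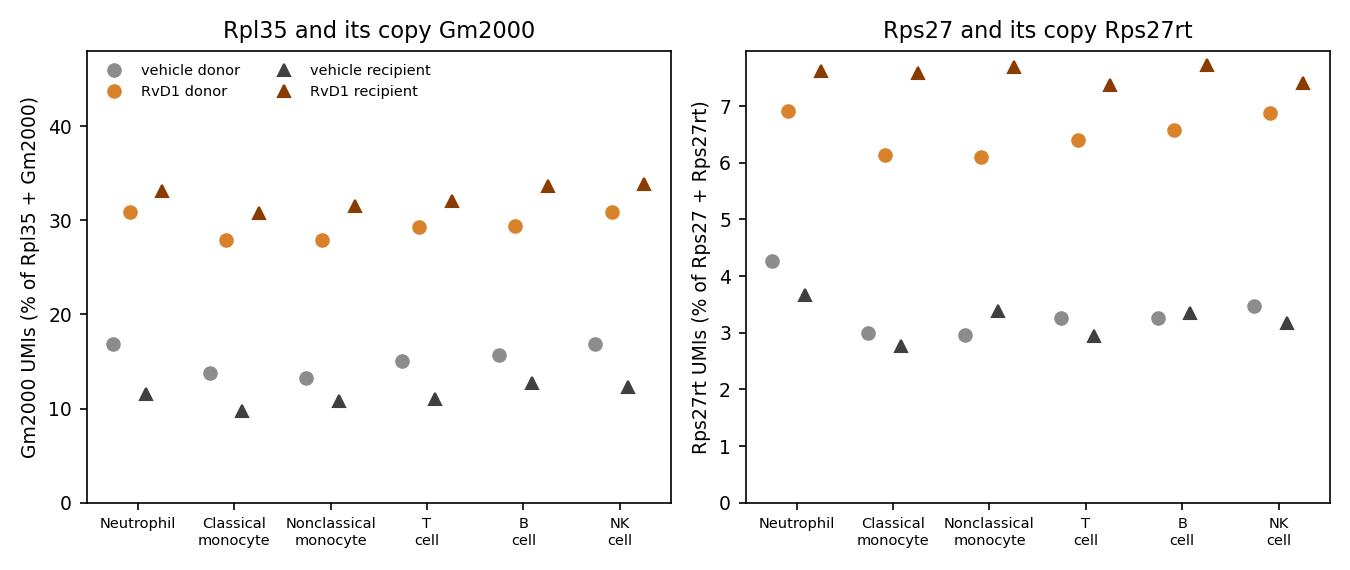
UMIs of a copy as a percentage of the UMIs of member and copy together (y axes) in 6 classes (x axes), for Rpl35 with Gm2000 (left) and Rps27 with Rps27rt (right). Symbols are libraries, circles donor and triangles recipient, grey vehicle and orange to brown RvD1. The RvD1 libraries lie at 27.9% to 33.8% and the vehicle libraries at 9.75% to 16.8% on the left.

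Recipient cells had a higher ribosomal protein share than donor cells in all 6 classes with vehicle and in 4 of 6 with RvD1, and T cells differed most. The comparison lies within 1 software version. In T cells the log2 ratio of recipient to donor was 0.59 (0.59 to 0.59) with vehicle and 0.35 (0.35 to 0.35) with RvD1. NK cells had 0.29 and 0.064, B cells 0.27 and -0.041, classical monocytes 0.15 and 0.051, neutrophils 0.051 and 0.13, and nonclassical monocytes 0.065 and -0.074. In vehicle T cells 76 of 77 members were higher in recipient cells, 38 of them at least 1.5-fold, against 2.44% of other genes. The median of the members was 0.58 and that of other genes -0.22. In RvD1 T cells 76 of 77 were again higher, with a median of 0.32 against -0.17, and 1 was at least 1.5-fold higher, against 5.1% of other genes. Ribosomal protein UMIs per T cell were higher in recipient cells (2173 and 3100 with vehicle, 2308 and 2657 with RvD1), and UMIs of other genes were lower (7620 and 6196, 6166 and 4997).

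T cells of donor and recipient were not the same mixture. Clusters 6 and 8, in which 7 markers of naive T cells summed to 2305 to 3000 CPM, made up 35.5%, 20.1%, 79.0% and 74.4% of the T cells. Their ribosomal protein shares were 28.4%, 35.8%, 33.1% and 35.9% in cluster 6 and 28.6%, 37.3%, 35.9% and 37.5% in cluster 8. Cluster 12 had 18.7%, 29.6%, 34.1% and 37.0%, below both in donor cells and above cluster 6 in recipient cells. Cluster 13, led by Tnfrsf4 and Ctla4, had 20.2%, 23.4%, 24.8% and 27.6%. Cluster 15, led by Il23r, had 17.5%, 20.9% and 19.8% in the libraries with at least 50 of its cells, and cluster 18, led by Gzmk, 16.1%, 22.3% and 19.4%, both without vehicle recipient cells. Within clusters the origin ratio was 0.22 in cluster 6, 0.33 in cluster 8, 0.87 in cluster 12 and 0.29 in cluster 13 with vehicle. With RvD1 it was 0.0056, 0.0091, 0.32 and 0.24 in the same clusters, -0.078 in cluster 15 and -0.20 in cluster 18. Giving equal weight to each of the 4 clusters with at least 50 cells in all libraries (6, 8, 12 and 13), the ratio was 0.41 with vehicle and 0.13 with RvD1, against 0.59 and 0.35 for T cells as a whole. With clusters 15 and 18 added, which is possible with RvD1 alone, it was 0.066 over 6 clusters.

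**Figure D5:**
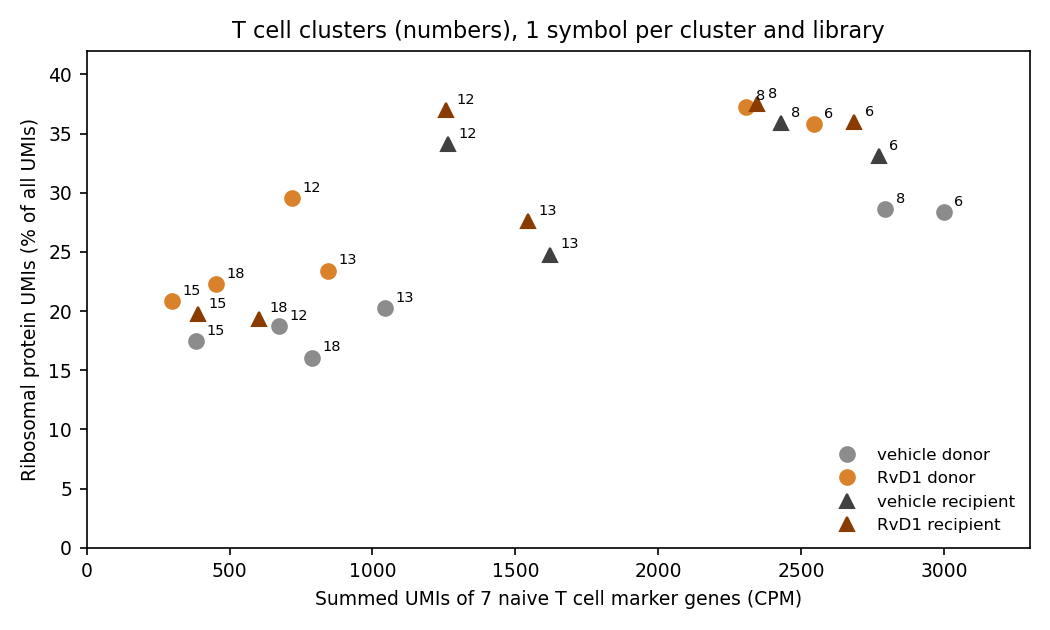
Ribosomal protein share of all UMIs (y axis, %) against the summed level of 7 naive T cell markers (x axis, CPM) for each T cell cluster (number beside the symbol) in each library with at least 50 of its cells. Circles are donor and triangles recipient cells, grey vehicle and orange to brown RvD1. Clusters 6 and 8 lie at the right with shares of 28.4% to 37.5%, and cluster 12 goes from 18.7% in vehicle donor to 37.0% in RvD1 recipient cells.

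Rps27l was the 1 member that departed from the others between recipient and donor cells in both treatments, in T cells and in the direction opposite to the rest. It had 131 CPM in donor and 110 CPM in recipient T cells with vehicle, and 148 and 102 CPM with RvD1. Its log2 ratios were -0.25 and -0.54, which lay -0.84 and -0.86 from the median member. In T cells 10.4% of other genes departed by this rule (11% of those with at least 1000 UMIs), and the members' count was 1 of 77. In neutrophils, classical and nonclassical monocytes, B and NK cells it was 0, against 5.32%, 1.08%, 0.464%, 0.963% and 0.0965% of other genes. In no T cell cluster compared in both treatments did the departure pass 1.5-fold with vehicle and with RvD1. Rps27l lay -0.15 and -0.18 from the median member in cluster 6 and -0.26 and 0.068 in cluster 8, with vehicle and RvD1. It lay -0.70 and -0.076 from it in cluster 12 and 0.11 and -0.68 in cluster 13, so each of these passed in 1 treatment. With RvD1 alone it lay -0.50 from it in cluster 15 and 0.53 in cluster 18. Rps27l had 81.1 to 103 CPM in clusters 6 and 8, which make up most recipient T cells, and 120 to 209 CPM in clusters 12, 13, 15 and 18.

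Genes close to the family but outside the rule followed it with exceptions. Fau, which encodes a ubiquitin-like protein fused to a small subunit protein, had 2167, 2738, 2602 and 2729 CPM in neutrophils and 4253, 5637, 6125 and 6475 CPM in T cells, a narrow gap like that of Rps9. Rack1, a scaffold protein on the small subunit, had 54.0, 54.3, 48.4 and 64.2 CPM in neutrophils and 1637, 1864, 2360 and 2414 in T cells, a gap as wide as that of many lower members. Rps3a1 had 230, 240, 242 and 295 CPM in neutrophils and 3099, 3680, 4537 and 5017 in T cells. The paralogues Rpl36al and Rpl22l1 had 12 to 17.1 and 28.9 to 38.7 CPM in neutrophils, and Rpl7l1 14.0 to 16.4 CPM.

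Other lists of the translation machinery were read by the same counts, at least 1.5-fold in donor and recipient cells. Of 21 elongation factor and other TOP genes, 0 were called with RvD1 in 5 classes, and in T cells 1 was higher, Vim, which encodes vimentin (230, 397, 92.5 and 139 CPM). The share of other genes higher by this rule was 1.18% in T cells and 0.74% to 5.31% in the 5 other classes. Their medians in nonclassical monocytes were 0.44 in donor and 0.35 in recipient cells, below the members' 0.60 and 0.43. Of 49 measured mitochondrial ribosomal protein genes in nonclassical monocytes, 9 were higher and 1 lower, with medians of 0.55 and 0.51, against 2.39% of other genes higher and 5.97% lower. In T cells the recipient to donor medians of the mitochondrial list were -0.025 with vehicle and -0.11 with RvD1, while those of the members were 0.58 and 0.32 and those of the TOP list 0.36 and 0.081.

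Integrated stress response genes, which are induced when translation initiation is reduced, had medians below 0 with RvD1 in all 6 classes and both origins. Only 6 were measured in T cells and 4 in B and in NK cells. Other genes also had medians below 0 in some classes. List and other genes had -0.59 and -0.045 in donor and -0.40 and -0.060 in recipient classical monocytes. In T cells they had -0.42 and -0.13, then -0.51 and -0.072. In B cells they had -0.57 and -0.28, then -0.30 and -0.11, and in NK cells -0.47 and -0.10, then -0.17 and -0.060. In neutrophils 3 of 9 measured were lower, against 9.75% of other genes, with medians of -0.75 and -0.58. Atf3, a transcription factor of this response, had 307, 183, 231 and 76.9 CPM there, and Chac1, a glutathione-degrading enzyme, 26.2, 7.70, 20.7 and 4.22. In nonclassical monocytes Ppp1r15a, whose product ends the response, had 175, 85.0, 169 and 80.6 CPM, and Ddit3 44.1, 23.0, 56.3 and 27.4. These 4 genes were named for being lower in both origins. That both vehicle libraries were above both RvD1 libraries for each is thus no separate result. Its share among other genes was not counted. Ppp1r15a and Ddit3 were the 2 of 9 measured genes lower in nonclassical monocytes, against 5.97% of other genes. The 1 gene higher there, against 2.39%, was Eif4ebp1, which encodes the translation repressor 4E-BP1 (74.3, 117, 87.2 and 138 CPM). Heatr1, a factor in ribosomal RNA processing, was the 1 ribosome biogenesis gene lower in neutrophils of 8 measured (108, 26.5, 90.9 and 28.7 CPM). Rptor, the mTORC1 subunit raptor, was the 1 of 13 in the list of ribosome storage and TOP control (61.5, 12.6, 31.7 and 13.2 CPM). Both counts were near the 9.75% of other genes lower in neutrophils. The make-up of the neutrophils also differed, with 866, 207, 1303 and 60 cells in cluster 0. Its part in the neutrophil values of Atf3, Chac1, Heatr1 and Rptor was not tested. In T cells 2 of 27 biogenesis genes were lower, Utp20 and Bysl, against 1.97% of other genes.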

How the data were processed

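The authors deposited unnormalised UMI counts for each gene in each barcode, made with Cell Ranger 6.1.1 (vehicle) or 7.0.1 (RvD1), per the file headers. Libraries used the 10x 3' v3 kit, per the labels' protocols. Build mm10 and Seurat 4.0.0 are named, per the submitters' processing notes. Intron counting: not given in the sources used here.

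Barcodes under 200 genes or above 10% mitochondrial UMIs were dropped (leaving 5527, 5024, 5829 and 7345 cells after doublet removal), and 131, 68, 89 and 278 doublets, called with Scrublet in scanpy 1.11.5 at 0.8% per 1000 cells, were removed. Libraries were clustered together (2000 variable genes, 30 components, 15 neighbours, leidenalg 0.10.2 at resolution 1) without ribosomal protein, mitochondrial, haemoglobin and sex-linked genes. Naming needed 3 markers of a class, each detected in 10% of the cluster's cells, and no other lineage at 90% of its score. That rule was settled after the clusters had been seen.

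For each class and library, UMIs were added up and divided by the class total (CPM). A class was compared with at least 100 cells in both libraries, and a gene was measured with at least 100 UMIs over both. Ratios are log2 without pseudocount, and a count of 0 was set to a floor of 3 counts. In the comparison of neutrophils with the other classes, every count below 3 was raised to 3. Intervals are exact (Clopper-Pearson, Poisson, binomial). Members named are those departing at least 1.5-fold between libraries or 2-fold between classes, the 5 with most UMIs, the member nearest the median per class, the paralogues and, of other lists, up to 4 genes. Neutrophil members are named beyond a limit of 10, and some items are not reported here. Members and lists were chosen with earlier results of these data known. Sequences come from RefSeq promoters (GRCm38.p6) and GENCODE M21 transcripts, and coordinates from GENCODE M21 (GRCm38). Calculations used Python 3.11.15, numpy 2.4.6, scipy 1.17.1 and pandas 2.3.3 and were tested on simulated counts.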

Additional observations from a re-analysis of the deposited data

Results flagged for a closer look

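The origin contrast had opposite signs with vehicle and with RvD1 in 2 classes. In nonclassical monocytes the log2 ratio of the ribosomal protein share, recipient to donor, was 0.0652 with vehicle and -0.0735 with RvD1, and 63 of 78 members were higher in recipient cells with vehicle against 8 of 78 with RvD1. In B cells it was 0.272 with vehicle and -0.0405 with RvD1, and 77 of 77 members were higher with vehicle against 18 of 77 with RvD1. Medians of other genes had the opposite sign, -0.077 with vehicle and 0.021 with RvD1 in nonclassical monocytes and -0.067 and 0.097 in B cells. Each value rests on 1 library per group, and the difference was not tested. Neutrophil markers summed to 80.9 and 861 CPM in donor and recipient B cells with vehicle, and to 1882 and 293 CPM with RvD1, and their part in the result was not tested.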

How the results depend on the processing

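No paired analysis was possible because each group is 1 library, and no library can be left out. With 1.5-fold in place of 2-fold for differences between classes, the counts moved. Neutrophils had 26 lower members in place of 15. Classical monocytes had 4 higher and 2 lower (1 and 0), nonclassical monocytes 2 and 1 (1 and 0). T cells had 5 lower (2), B cells 2 higher and 3 lower (0 and 1), and NK cells 1 higher and 3 lower (0 and 1). Other doublet, mitochondrial, clustering, UMI minimum and scaling settings kept every count of departing members within 1.5 times. With doublets kept, Rps25 was lost from the neutrophil list. Rps27l was the 1 member departing between origins in all settings, and 0 departed with RvD1.

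With each library clustered alone, the recipient to donor ratio of classical monocytes with RvD1 turned to -0.026, so 3 of 6 classes were higher. With cells thinned to 500 UMIs, 5 of 6 were higher with RvD1 in donor cells and 5 of 6 in vehicle recipient cells. Further settings were chosen after seeing the data. Without neutrophil cluster 0 the donor RvD1 ratio was -0.042 and the vehicle origin ratio -0.038, leaving 5 of 6 in each. Without cluster 16 the recipient RvD1 ratio of nonclassical monocytes was -0.016, leaving 5 of 6. The departure of Rps27l turned to 0.068 in T cell cluster 8 and 0.53 in cluster 18 with RvD1, and to 0.11 in cluster 13 with vehicle. It was -0.70 in cluster 12 with vehicle and -0.68 in cluster 13 with RvD1. The cause of these changes was not tested. Low counts limit Rpl3l in lymphocytes and Rpl10a in neutrophils.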
